A study of Mus musculus with 18 samples.

Results

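The genes described here are 9 chains of the non-fibrillar collagens that lie between or on collagen fibrils: Col6a1, Col6a2, Col6a3 and Col6a6 of collagen VI, Col9a1 and Col9a2 of collagen IX, and Col12a1, Col14a1 and Col16a1, which encode collagens XII, XIV and XVI. They were chosen by gene symbol from the 54281 genes of the count table. RNA of the whole descending aorta (intima, media and adventitia together) was sequenced in 18 male C57BL/6 mice, 6 in each of 3 groups. The HGPS mice (genotype LMNAG609G, 64 to 75 d old) carry the mutation of Hutchinson-Gilford progeria syndrome at the endogenous Lmna locus, in all cells that express the gene. In the 2-mo WT group 5 mice were 62 d old and replicate 6 was 95 d, while ages in the 24-mo WT group ran from 609 to 762 d. No treatment was given to any of the 3 groups. By the study's methods the WT mice were bought and the HGPS line came from another laboratory on the same background; whether the 2-mo WT mice were littermates of the HGPS mice is not given in the sources used here.

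Collagen VI is built from Col6a1, Col6a2 and Col6a3 chains, which join within the cell and are secreted to form beaded microfilaments around cells and next to basement membranes; Col6a6 encodes a chain that resembles Col6a3 and can take its place. Collagens IX, XII, XIV and XVI are fibril-associated collagens with interrupted triple helices (FACITs), which sit on the surface of fibrils made by other collagens and link them to the surrounding matrix. Collagens XII and XIV are found on collagen I fibrils of tendon, skin and vessel wall, whereas collagen IX is known from the collagen II fibrils of cartilage, and in the arterial wall fibroblasts and smooth muscle cells are the main sources of these proteins.

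In GRCm38, Col6a1 (ENSMUSG00000001119, chr10:76708792-76726168) and Col6a2 (ENSMUSG00000020241, chr10:76595762-76623630) lie on the minus strand 85161 bases apart. Col6a3 (ENSMUSG00000048126) is at chr1:90765923-90843971 and Col6a6 (ENSMUSG00000043719) at chr9:105687809-105828160, both on the minus strand. Col6a6 is followed 27917 bases on by Col6a5. Col9a1 (ENSMUSG00000026147) lies at chr1:24177610-24252684 and Col9a2 (ENSMUSG00000028626) at chr4:121039385-121055322, on the plus strand. Col12a1 (ENSMUSG00000032332) lies at chr9:79598991-79718831 on the minus strand, and Col14a1 (ENSMUSG00000022371) at chr15:55307750-55520803 and Col16a1 (ENSMUSG00000040690) at chr4:130047840-130099283 on the plus strand. Exons of Col6a6 share 63 bases with Gm38314 on the opposite strand, which had 0 counts in every mouse, and no other member shared exon bases with another gene.

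For each of the 4 collagen VI genes, the 120 bases before the most upstream annotated start are given, 5′ to 3′ on the gene's own strand (RefSeq, GRCm38.p6). The windows are chr10:76726169-76726288 for Col6a1, chr10:76623631-76623750 for Col6a2, chr1:90843972-90844091 for Col6a3 and chr9:105828161-105828280 for Col6a6. Capitals mark the GC box letters GGGCGG on either strand, the only one of 3 searched motifs (with TATAAA and CCAAT, both strands) that occurred in these 4 windows.
Col6a1: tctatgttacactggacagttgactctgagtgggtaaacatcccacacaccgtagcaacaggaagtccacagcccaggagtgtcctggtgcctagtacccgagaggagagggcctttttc
Col6a2: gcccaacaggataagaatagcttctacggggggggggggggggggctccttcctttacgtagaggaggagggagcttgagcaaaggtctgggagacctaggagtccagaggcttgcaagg
Col6a3: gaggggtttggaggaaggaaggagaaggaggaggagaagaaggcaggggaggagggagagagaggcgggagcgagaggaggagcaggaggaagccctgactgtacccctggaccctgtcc
Col6a6: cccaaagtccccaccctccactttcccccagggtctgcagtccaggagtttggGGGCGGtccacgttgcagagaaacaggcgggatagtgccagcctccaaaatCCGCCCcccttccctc

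Col6a6 held 2 GC boxes, and Col6a1, Col6a2 and Col6a3 held none. GGGCGG occurred in 26.3% of 27026 promoter windows of the same length, TATAAA in 6.6% and CCAAT in 22.2%. The GC content was 53.3% for Col6a1, 60.0% for Col6a2, and 63.3% for both Col6a3 and Col6a6, against a median of 54.2% over all windows. Of the other members, Col9a2 held 2 GC boxes, Col16a1 held 1 CCAAT and Col9a1 held none of the 3, while Col12a1 and Col14a1 had no window. The Col9a2 window (chr4:121039446-121039565) lies inside the annotated gene, which starts at 121039385. A match of letters describes the window and says nothing of which factors bind there, and a link to the changes in expression was not tested.

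The libraries held 12413229 to 30844775 counts per mouse. Counts were scaled to the library size with trimmed-mean factors (CPM), and the 15210 genes that reached 10 counts in 6 or more mice entered 1 edgeR fit of all 3 groups. There were 2 call rules: the study's cut-offs of 1.5-fold and an adjusted p under 0.001, for which a gene is said to be called, and an adjusted p under 0.05 with no fold cut-off, for which a gene is said to have risen or fallen. Lmna, the mutated gene, had 445 to 653 CPM in HGPS mice, 341 to 486 in 2-mo WT and 341 to 540 in 24-mo WT, and these counts do not separate the mutant transcript from the normal one. Summed markers of smooth muscle (7 genes) ran from 19647 to 27404 CPM in HGPS, below the 29473 to 38006 of 2-mo WT and the 30468 to 34690 of 24-mo WT. Those of fibroblasts other than collagens (7 genes) were 1078 to 1487 CPM in HGPS, 1433 to 1684 in 2-mo WT and 946 to 1208 in 24-mo WT. Markers of brown fat (8 genes, 461 to 1711 CPM), white fat (6 genes, 515 to 2281 CPM) and macrophages (6 genes, 767 to 1232 CPM) rose in HGPS (8 of 8, 5 of 6 and 6 of 6 genes) from 109 to 613, 182 to 710 and 409 to 630 CPM in 2-mo WT, and their sums were 123 to 395, 111 to 574 and 359 to 738 CPM in 24-mo WT. No marker of these 5 cell types was at 0 throughout a group. In whole-tissue RNA, fewer cells of a type and less RNA per cell cannot be told apart.

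Collagen VI and collagen XIV made up most of the RNA of these genes. Per kilobase of the longest coding transcript, Col6a1 had the highest level in all 3 groups, with 224 CPM per kb in 2-mo WT, 148 in HGPS and 132 in 24-mo WT. In 2-mo WT it was followed by Col6a2 (138 CPM per kb), Col14a1 (102), Col6a3 (91.7), Col16a1 (12.6), Col12a1 (6.15), Col6a6 (4.78) and Col9a1 (0.136). The ranges of Col14a1 and Col6a3 overlapped there, as did those of Col12a1 and Col6a6, and the other neighbours in this order did not overlap. In HGPS mice Col12a1 (13.9 CPM per kb) stood above Col16a1 (11.9), in 4 of 6 mice and with overlapping ranges, and Col6a3 (81.4) stood above Col14a1 (64.4) in 6 of 6. In 24-mo WT, Col6a3 (72.2) and Col14a1 (71.9) were not separated, with Col6a3 the higher in 2 of 6 mice. All 9 genes together took 0.298 to 0.36% of the counts of a 2-mo WT mouse, 0.22 to 0.304% in HGPS and 0.191 to 0.276% in 24-mo WT.

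**Figure D1:**
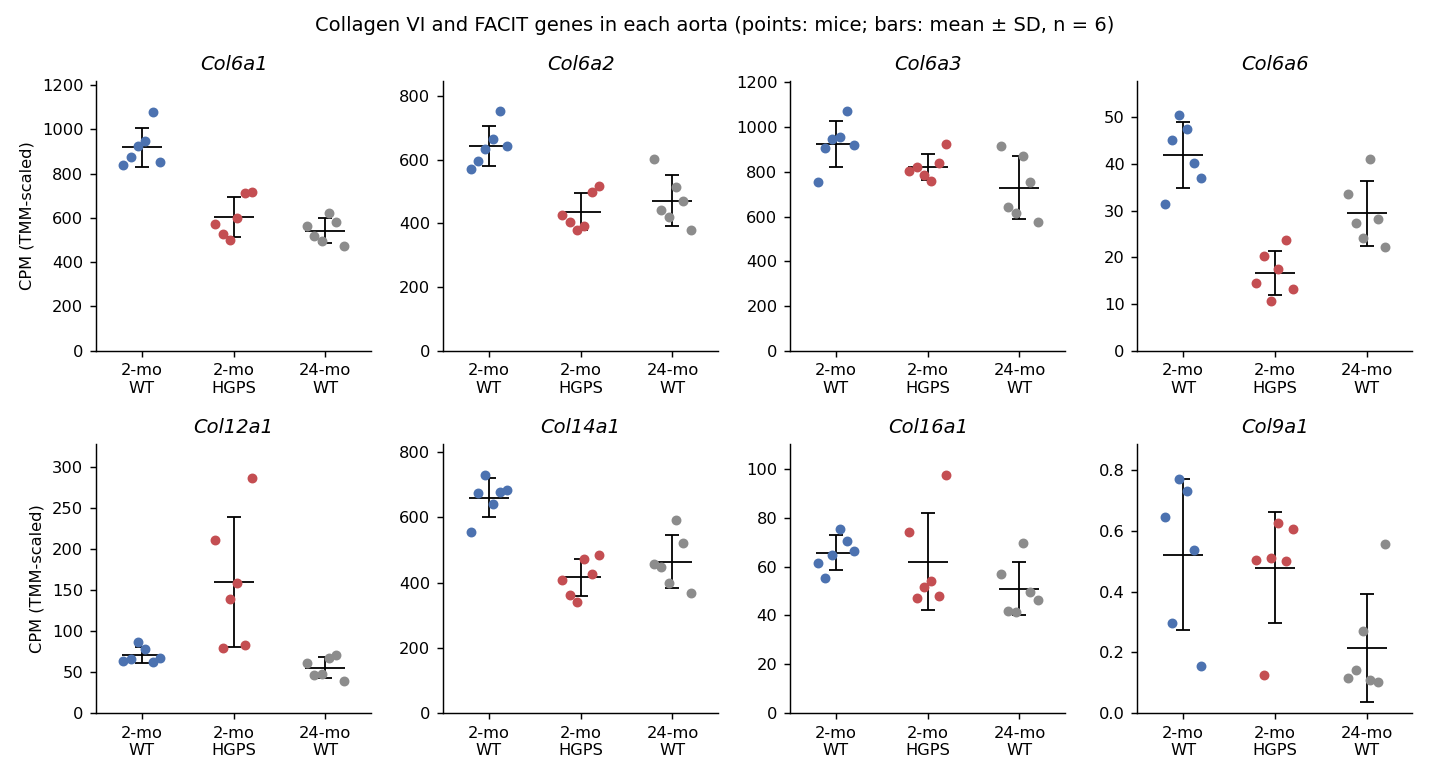
CPM (y axis, from 0) of the 8 tested genes in each mouse (points, in order of replicate number), with the mean and SD of each group of 6. Col6a1, Col6a2, Col6a6 and Col14a1 of HGPS mice lie below all 2-mo WT mice, and Col12a1 of HGPS mice spreads from 79.7 to 286 CPM.

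The comparison of HGPS with 2-mo WT asks which of these genes differ early in progeria. Of the 8 genes tested, Col6a1, Col6a2, Col6a6 and Col14a1 fell in HGPS aortas and Col12a1 rose, whereas Col6a3, Col16a1 and Col9a1 did not pass the test. The falls ranged from 0.398-fold for Col6a6 to 0.679-fold for Col6a2, and Col12a1 reached 2.26-fold of the 2-mo WT level. Of the 8, 1 was called higher and 3 lower by the study's cut-offs, where 5.27% and 4.23% of all 15210 genes were called. With an adjusted p under 0.05, 1 rose and 4 fell, where 22% of all genes rose and 21.2% fell. In 4 of the 8 the groups did not overlap, as in 21.9% of all genes. The median log2 fold change of the 8 was -0.36, and that of all genes 0.003.

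Col6a1, whose chain is part of every collagen VI molecule, was at 840, 877, 925, 946, 1078 and 851 CPM in the 2-mo WT mice and at 573, 529, 500, 598, 711 and 718 CPM in the HGPS mice. The lowest 2-mo WT mouse lay above the highest HGPS mouse. The log2 fold change was -0.60 ± 0.10 (SE), with an adjusted p of 6.66e-05, and the level was 0.658-fold, just past the 1.5-fold cut-off, which 15 of the 18 fits with a mouse left out kept (not those without HGPS replicates 2 or 3 or 2-mo WT replicate 5). Col6a2, its partner chain, had 571, 596, 633, 664, 752 and 643 CPM in 2-mo WT and 427, 406, 379, 393, 498 and 518 CPM in HGPS. These groups did not overlap either. Its log2 fold change of -0.56 ± 0.11 (adjusted p = 0.000343) fell just short of the 1.5-fold cut-off, and it was called in 3 of the 18 fits with a mouse left out (those without HGPS replicate 5 or 6 or 2-mo WT replicate 1).

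Col6a3, the longest of the 3 classical chains, had 754 to 1072 CPM in 2-mo WT (median 934) and 758 to 925 CPM in HGPS (median 814). The HGPS mice lay within the 2-mo WT range. The log2 fold change was -0.17 ± 0.11 with a 95% interval of -0.39 to 0.05 (adjusted p = 0.204).

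Col6a6 had 31.4, 45.1, 50.5, 47.5, 40.2 and 37.0 CPM in 2-mo WT and 14.5, 20.2, 10.7, 17.4, 23.7 and 13.3 CPM in HGPS. Every HGPS mouse was below every 2-mo WT mouse, and the fall of 1.33 ± 0.18 on the log2 scale (adjusted p = 1.23e-05) was the largest of the 8 genes. It was called in all 18 fits with a mouse left out.

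Of the FACITs, Col12a1 rose and Col14a1 fell. Col12a1, whose product bridges collagen I fibrils and is known to be raised in tissue under load, had 63.9, 66.3, 86.5, 78.2, 62.7 and 66.9 CPM in 2-mo WT and 211, 79.7, 139, 159, 83.5 and 286 CPM in HGPS. HGPS replicates 2 and 5 lay within the 2-mo WT range, the other 4 HGPS mice lay above it, and the SD within the group was 79.2 CPM against 9.47 in 2-mo WT. The log2 fold change was 1.18 ± 0.25 (adjusted p = 0.000831). This lay just under the cut-off of 0.001: the call was kept in 4 of the 18 fits with a mouse left out, with log2 fold changes of 0.93 to 1.32 and adjusted p-values up to 0.00269 in all 18.

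The HGPS mouse with the most Col12a1, replicate 6, also had the highest summed white fat (2281 CPM), macrophage (1232 CPM) and fibroblast markers (1487 CPM) of its group. Its summed smooth muscle markers were the lowest (19647 CPM). Replicate 1, with the next most Col12a1, was at 1284, 1023, 1218 and 22278 CPM for these sums in that order, within the range of the rest of the group. The part of white fat and macrophages in the result was not tested. Adding the scores of the brown fat and skeletal muscle lists (mean log2 CPM of each) to the fit gave Col12a1 a log2 fold change of 1.12 (adjusted p = 0.0307). Only 3 of the 6 skeletal muscle genes could be tested and entered that score. The whole list summed to only 2.79 to 4.71 CPM per mouse in 2-mo WT, 2.86 to 5.39 in HGPS and 4.66 to 8.28 in 24-mo WT.

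Col14a1, a close relative of Col12a1 that lies on the same fibrils, had 554 to 731 CPM in 2-mo WT (median 676) and 341 to 485 CPM in HGPS (median 417). The groups did not overlap, and the log2 fold change was -0.67 ± 0.11 (adjusted p = 9.34e-05), called in all 18 fits with a mouse left out. Col16a1, which is found next to fibrillin and collagen fibrils, had 55.2 to 75.5 CPM in 2-mo WT and 47.2 to 97.3 CPM in HGPS. Its HGPS mice spread to both sides of the 2-mo WT range, with replicate 6 (97.3 CPM) and replicate 1 (74.0 CPM) the highest, the mice that also had the most Col12a1. The log2 fold change was -0.08 ± 0.16 (adjusted p = 0.716), with a 95% interval of -0.43 to 0.26.

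Collagen IX was close to the limit of detection. Col9a1 had 3 to 14 counts per mouse in 2-mo WT and 3 to 20 in HGPS, and its log2 fold change of -0.10 ± 0.43 (adjusted p = 0.881) leaves an interval of -0.99 to 0.80. Col9a2 had 4 counts in all 18 mice together, at most 1 in a mouse, and was not tested. A mouse with 0 counts allows up to 0.0973 to 0.242 CPM (3 counts of its library total), which covers counting error only. The cartilage markers summed to 32.3 to 43.1 CPM in 2-mo WT, 34.9 to 76.5 in HGPS and 32.8 to 98.9 in 24-mo WT. Of the 8 chondrocyte markers, Cnmd was at 0 in every 2-mo WT mouse, Cnmd and Matn1 were at 0 in every 24-mo WT mouse, and 3 of the 4 that could be tested rose in HGPS.

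The markers of other cells moved between these groups too: 5 of 7 smooth muscle and 4 of 7 fibroblast markers fell in HGPS, and all 8 brown fat, 5 of 6 white fat and all 6 macrophage markers rose. With the fibroblast and smooth muscle marker scores in the fit, none of the 8 genes passed an adjusted p of 0.05, and neither did nearly all other genes: 28 of 15210 did, and 0 were called at the study's cut-offs. The log2 fold change of Col12a1 was then 1.5 (adjusted p = 0.251) and that of Col6a6 -0.23 (adjusted p = 0.861). With the brown fat and skeletal muscle scores in the fit, the same 5 genes passed an adjusted p of 0.05 and 0 were called. The log2 fold changes were then -0.60 for Col6a1 (adjusted p = 0.00332), -0.64 for Col6a2 (adjusted p = 0.00501), -1.22 for Col6a6 (adjusted p = 0.00299) and -0.58 for Col14a1 (adjusted p = 0.0117).

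**Figure D2:**
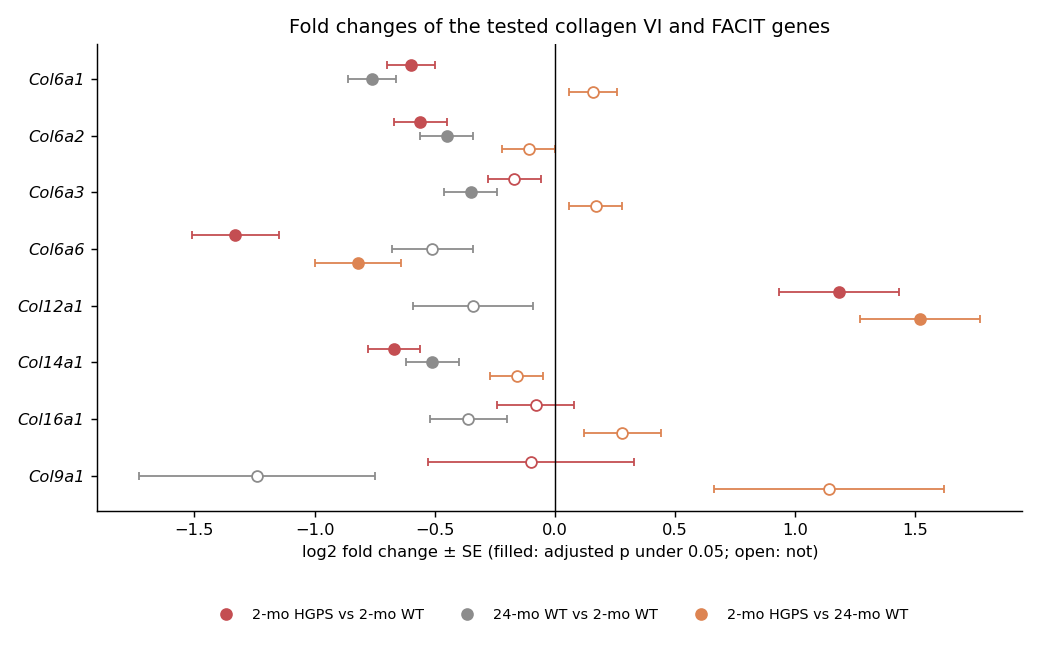
Log2 fold change with SE (x axis) of the 8 tested genes in the 3 comparisons (colours), filled where the adjusted p was under 0.05. Col12a1 is the only gene to the right of 0 with a filled point, in both comparisons with HGPS mice, and Col6a6 lies furthest to the left in HGPS against 2-mo WT (-1.33).

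The comparison of 24-mo with 2-mo WT asks what changes with natural aging. Col6a1, Col6a2, Col6a3 and Col14a1 fell with age, and none of the 8 genes rose. The falls ran from 0.591-fold (Col6a1) to 0.787-fold (Col6a3). By the study's cut-offs, 0 were called higher and 1 lower, where 1.28% and 0.717% of all genes were called. With an adjusted p under 0.05, 0 rose and 4 fell, where 6.29% of all genes rose and 5.38% fell, and the groups of 1 gene did not overlap, as in 6.28% of all genes. At the median, the 8 had a log2 fold change of -0.48 and all genes 0.008. The 24-mo and HGPS mice were compared with the same 6 young mice, so the falls that both comparisons show are not independent of each other.

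Col6a1 had 563, 519, 495, 623, 584 and 473 CPM at 24 mo, all below the 840 to 1078 CPM of 2-mo WT. Its fall of 0.76 ± 0.10 on the log2 scale (adjusted p = 2.31e-05) was the only one called, in this fit and in all 18 with a mouse left out. Col6a2 had 378 to 604 CPM at 24 mo (median 457) and fell by 0.45 ± 0.11 on the log2 scale (adjusted p = 0.00789), with only 24-mo replicate 1 (604 CPM) inside the 2-mo WT range. Col6a3 had 578 to 915 CPM (median 700), and 24-mo replicates 1 and 4 (915 and 869 CPM) lay within the 2-mo WT range and replicate 5 (754 CPM) at its lower edge. Its fall of 0.35 ± 0.11 on the log2 scale (adjusted p = 0.039) kept an adjusted p under 0.05 in 9 of the 18 fits with a mouse left out, and reached 0.0915 without 2-mo WT replicate 5. The adjusted p was 0.0799 with the 2 WT groups alone and 0.0674 with the replicate number as a block.

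Col6a6 had 22.1 to 41 CPM at 24 mo, with a log2 fold change of -0.51 ± 0.17 (adjusted p = 0.0651). Its adjusted p was 0.0327 with DESeq2 and 0.0422 with the 2 WT groups alone, and under 0.05 in 4 of the 18 fits with a mouse left out. Col14a1 had 369 to 591 CPM at 24 mo (median 453) and fell by 0.51 ± 0.11 on the log2 scale (adjusted p = 0.00404), with 24-mo replicate 4 (591 CPM) alone inside the 2-mo WT range. Col12a1, with 39.0 to 70.8 CPM, had a log2 fold change of -0.34 ± 0.25 (95% interval -0.86 to 0.17, adjusted p = 0.425), and Col16a1, with 41.6 to 69.5 CPM, of -0.36 ± 0.16 (adjusted p = 0.171). Col9a1 had 2, 2, 5, 2, 2 and 9 counts in the 24-mo mice and a log2 fold change of -1.24 ± 0.49 (adjusted p = 0.111), which reached an adjusted p of 0.0262 without 24-mo replicate 6, the mouse with 9 counts.

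Of the fibroblast markers, 4 of 7 fell at 24 mo as well, and none of the 7 smooth muscle markers passed. With the fibroblast and smooth muscle scores in the fit, none of the 8 genes passed an adjusted p of 0.05, and 91 of the 15210 genes did. With the brown fat and skeletal muscle scores, Col6a1 kept its call (log2 fold change -0.88, adjusted p = 7.47e-05), and Col16a1 passed 0.05 (-0.73, adjusted p = 0.00744).

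HGPS mice were then compared with 24-mo WT, which sets the progeria aorta beside the naturally aged one. Col12a1 was higher in HGPS and Col6a6 lower, and the other 6 genes did not pass an adjusted p of 0.05. By the study's cut-offs, 1 was called higher and 1 lower, where 6.02% and 6.11% of all genes were called. With an adjusted p under 0.05, the same 1 and 1 passed, where 23.8% of all genes were higher and 23.6% lower, and the groups of 1 gene did not overlap, as in 22.2% of all genes. Median log2 fold changes were 0.16 for the 8 and -0.01 for all genes.

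Every HGPS mouse (79.7 to 286 CPM) had more Col12a1 than every 24-mo WT mouse (39.0 to 70.8 CPM), with a log2 fold change of 1.52 ± 0.25 (2.86-fold, adjusted p = 6.38e-05), called in all 18 fits with a mouse left out. Col6a6, at 10.7 to 23.7 CPM in HGPS and 22.1 to 41 CPM in 24-mo WT, overlapped in 1 HGPS mouse (replicate 5, 23.7 CPM). Its log2 fold change was -0.82 ± 0.18, and the adjusted p of 0.000918 stayed under 0.001 in 4 of the 18 fits with a mouse left out and under 0.05 in all 18. The differences of Col6a1 (0.16 ± 0.10, adjusted p = 0.189), Col6a2 (-0.11 ± 0.11, 0.404), Col6a3 (0.17 ± 0.11, 0.187) and Col14a1 (-0.16 ± 0.11, 0.245) on the log2 scale all had 95% intervals within -0.39 and 0.40. For Col16a1 the interval was -0.06 to 0.62 and for Col9a1 0.14 to 2.14 (adjusted p = 0.168 and 0.0558). The adjusted p of Col9a1 was under 0.05 in 3 of the 18 fits with a mouse left out, and that of Col6a3 in 1. With the fibroblast and smooth muscle scores in the fit none of the 8 genes passed an adjusted p of 0.05, and with the brown fat and skeletal muscle scores Col12a1 (log2 fold change 1.76, adjusted p = 0.00121) and Col6a6 (-0.72, 0.0486) did.

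The chains of collagen VI assemble together, so their ratios were taken within each mouse, as differences in log2 CPM. In 2-mo WT the Col6a3 and Col6a1 counts were near equal, with a mean log2 ratio of 0.01 ± 0.09 (SD, n = 6) and a range of -0.16 to 0.11. In HGPS mice the ratio was 0.45 ± 0.17 (0.24 to 0.65) and in 24-mo WT 0.41 ± 0.16 (0.29 to 0.70). Both groups lay wholly above 2-mo WT. By two-sided exact permutation tests each differed from 2-mo WT with p = 0.00216, the smallest that 6 against 6 mice can give (adjusted p = 0.00464 over 15 tests of 5 ratios, which share chains and are not independent), and HGPS against 24-mo WT gave p = 0.658 in the same exact test.

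Set against Col6a2, Col6a3 was at 0.52 ± 0.07 on the log2 scale in 2-mo WT, 0.92 ± 0.11 in HGPS and 0.62 ± 0.08 in 24-mo WT. The HGPS mice (0.75 to 1.05) lay above the 2-mo WT mice (0.40 to 0.61) without overlap, and 1 of the 24-mo WT mice (0.76) reached into their range. The exact permutation tests gave adjusted p = 0.00464 for HGPS against 2-mo WT, 0.062 for 24-mo against 2-mo WT (under 0.05 without 2-mo WT replicate 2 or 24-mo replicate 2 or 3) and 0.00812 for HGPS against 24-mo WT. The ratio of Col6a1 to Col6a2, the neighbouring genes of chromosome 10, was 0.52 ± 0.06 in 2-mo WT and 0.47 ± 0.08 in HGPS (exact test, adjusted p = 0.29). At 24 mo it was 0.21 ± 0.16, below all mice of both other groups (adjusted p = 0.00464 for each, exact tests). The lowest of the 24-mo mice, replicate 1, stood apart at -0.10, and the other 5 ranged from 0.23 to 0.32.

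Between the FACITs, Col12a1 over Col14a1 was at a log2 ratio of -3.23 ± 0.17 in 2-mo WT (-3.43 to -3.03), -3.07 ± 0.16 in 24-mo WT (-3.24 to -2.88) and -1.52 ± 0.65 in HGPS (-2.35 to -0.76). The HGPS mice did not overlap with either WT group (adjusted p = 0.00464 for each, exact tests), and HGPS replicates 2 and 5 were the nearest to WT. The WT groups overlapped, with adjusted p = 0.173. The ratio of Col9a2 to Col9a1 was not read, since Col9a2 had at most 1 count in a mouse and the ratio then follows Col9a1 alone.

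**Figure D3:**
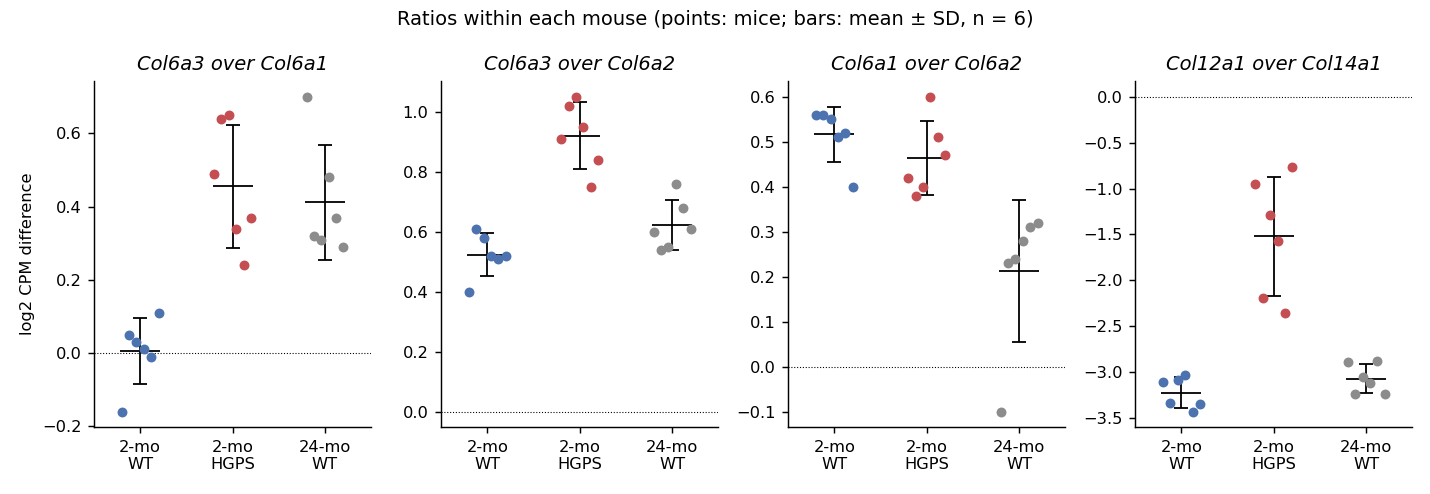
Log2 CPM differences within each mouse (y axis; points, with mean and SD of 6) for 3 pairs of collagen VI chains and for Col12a1 over Col14a1, in the 3 groups. Col6a3 over Col6a1 is higher in HGPS and 24-mo WT than in all 2-mo WT mice, and Col12a1 over Col14a1 is higher in HGPS than in all WT mice.

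Because FACITs lie on fibrils, each gene was also set against the mean log2 CPM of Col1a1, Col1a2 and Col3a1, the chains of the major fibrillar collagens I and III. These fibrillar genes themselves fell at 24 mo, with log2 fold changes of -0.92 ± 0.28 for Col1a1, -0.95 ± 0.14 for Col1a2 and -1.66 ± 0.15 for Col3a1 (adjusted p = 0.037, 0.000141 and 2.59e-07), that of Col1a1 past 0.05 in 10 of the 18 fits with a mouse left out. In HGPS against 2-mo WT they were at -0.26, -0.33 and -0.38 (adjusted p = 0.479, 0.0693 and 0.035), that of Col3a1 past 0.05 in 12 of 18 such fits. Relative to them, 7 of the 8 genes were higher in 24-mo than in 2-mo WT. The differences ran from 0.47 for Col6a1 to 0.88 for Col6a3 on the log2 scale, without overlap between the groups, each with an adjusted p of 0.00346 in exact permutation tests (24 tests). None of the 8 rose in CPM at 24 mo, so these are differences relative to fibrillar chains that fell. The median log2 fold change of all genes in CPM was 0.008, so a gene with unchanged CPM is also higher on this relative scale. The share of all genes that were higher on it was not computed, so these differences do not set the 7 genes apart from other genes. With Col3a1 left out of the reference, Col6a1 differed by 0.26 (adjusted p = 0.182, exact test) and the other 6 kept an adjusted p under 0.05. Col9a1 differed by 0.25 (adjusted p = 0.644, exact test).

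In HGPS against 2-mo WT, Col12a1 was 1.40 higher and Col6a6 1.00 lower on this relative log2 scale, both without overlap (adjusted p = 0.00346, exact tests). Col6a1 was lower by 0.25 (adjusted p = 0.00974, exact test) and Col14a1 by 0.31 (adjusted p = 0.0428). Both lost an adjusted p of 0.05 when Col3a1 was left out of the reference (0.0519 and 0.055, exact tests). Col6a1 also lost it without 2-mo WT replicate 1 or 6, and Col14a1 without any of HGPS replicates 1, 2, 5 and 6 or 2-mo WT replicates 1, 2, 3, 4 and 6. Col6a2 (-0.20), Col6a3 (0.19) and Col16a1 (0.23) did not pass, but without HGPS replicate 6 Col6a3 did (0.29, adjusted p = 0.00917, exact test). HGPS replicate 6 was the lowest of its group for Col6a1, Col6a2, Col6a3, Col6a6 and Col14a1 on this scale, with -2.71 for Col6a1 and -8.45 for Col6a6. Against 24-mo WT, Col6a1, Col6a2, Col6a3, Col6a6, Col14a1 and Col16a1 were lower in HGPS by 0.62 to 1.71 (adjusted p = 0.00346 each, exact tests), and Col12a1 was at 0.53 (adjusted p = 0.0793). In CPM only Col6a6 of these was lower in HGPS. The reference genes Col1a1, Col1a2 and Col3a1 were at 0.66, 0.63 and 1.27 (adjusted p = 0.0579, 0.0013 and 1.09e-06, edgeR fit). The differences are thus relative to a reference in which Col1a2 and Col3a1 were higher in HGPS, while Col1a1 did not pass. The median log2 fold change of all genes in CPM was -0.01, so a gene with equal CPM in both groups is also lower on this scale. The share of all genes that were lower on it was not computed. With Col3a1 left out of the reference, the lower levels kept adjusted p-values of at most 0.0482 (Col6a1, exact tests).

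**Figure D4:**
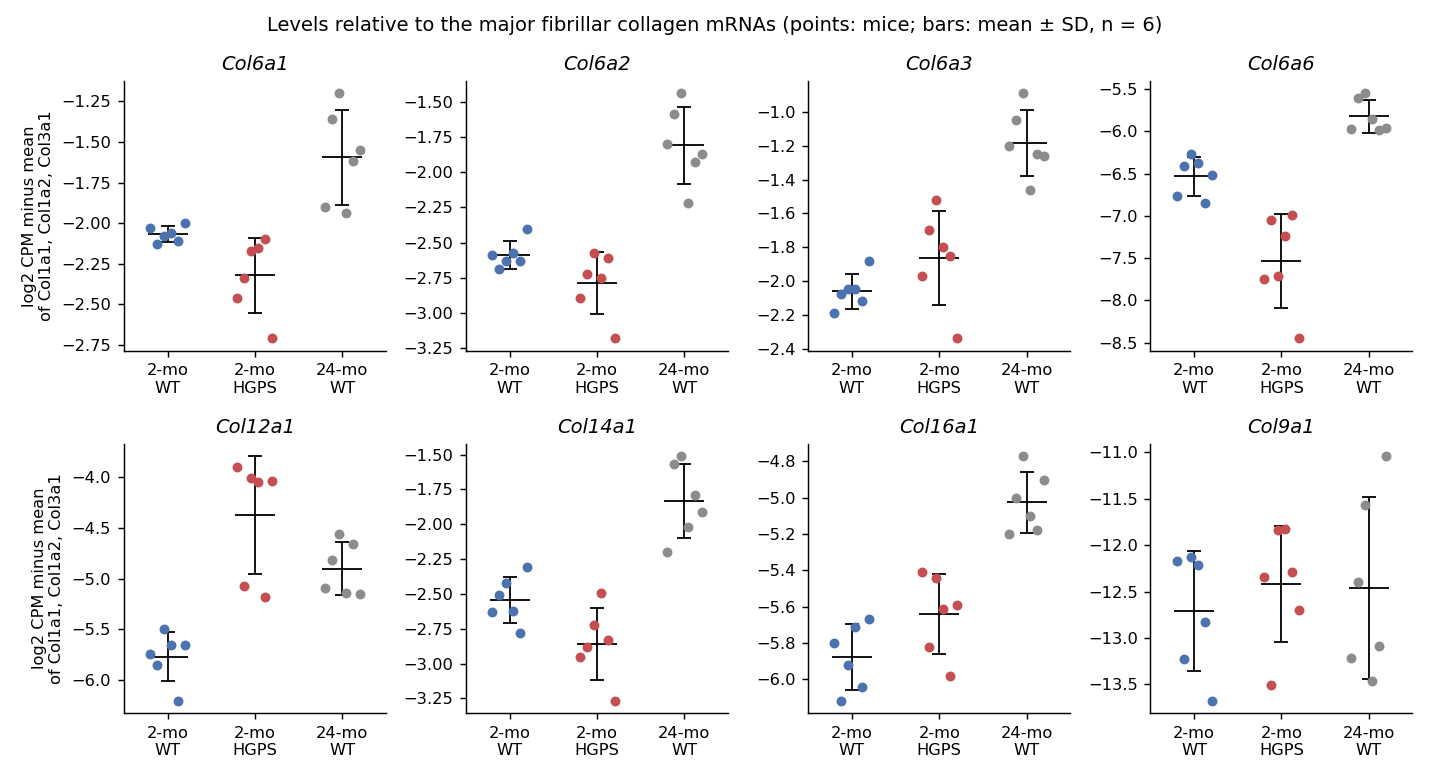
Log2 CPM of each gene minus the mean log2 CPM of Col1a1, Col1a2 and Col3a1 in each mouse (y axis, not from 0; points, with mean and SD of 6). In 7 of the 8 genes the 24-mo WT mice lie above all 2-mo WT mice, and Col9a1 is the exception. The reference genes themselves fell at 24 mo.

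Of 7 other chains of the same families, 6 were in the table and 4 could be tested; Col21a1 was not matched by symbol, and Col6a4 (0 to 6 counts per mouse) and Col9a3 (0 to 7) were too low. The FACIT Col19a1, which lies 9205 bases beyond Col9a1 on the other strand, moved in opposite directions in the 2 comparisons with young mice. It had 11.2 to 17.3 CPM in 2-mo WT, 3.40 to 7.41 CPM in HGPS and 35.2 to 52.5 CPM in 24-mo WT, and no mouse of any group overlapped with another group. Its log2 fold change was -1.47 ± 0.17 in HGPS (adjusted p = 3.41e-06) and 1.69 ± 0.16 at 24 mo (adjusted p = 8.86e-07), and HGPS against 24-mo WT was at -3.16 ± 0.18 (adjusted p = 1.43e-10). Col6a5, the neighbour of Col6a6 and like it a chain that resembles Col6a3, had a mean of 0.689 CPM in 2-mo WT, 0.276 in HGPS and 1.18 in 24-mo WT. It fell in HGPS against 2-mo WT (log2 fold change -1.35 ± 0.49, adjusted p = 0.0339, past 0.05 in 12 of the 18 fits with a mouse left out) and was lower in HGPS than at 24 mo (-2.08 ± 0.48, adjusted p = 0.00151). Counts of Col6a5 were few, 1 to 17 per mouse in HGPS, 3 to 25 in 2-mo WT and 9 to 28 in 24-mo WT. The CPM range of HGPS overlapped with that of each WT group. Col22a1, known from tissue junctions, had a higher level in HGPS than at 24 mo (1.01 ± 0.31, adjusted p = 0.0119). It was sparse, with 14 to 44 counts per mouse in HGPS and 6 to 16 at 24 mo, and the CPM ranges of these groups overlapped. Col20a1 passed in none of the 3 comparisons (adjusted p = 0.174, 0.297 and 0.982).

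Of 11 cell-surface receptors and partners of these collagens, 7 fell and 1 rose in HGPS against 2-mo WT, and none passed at 24 mo. Of all genes, 21.2% fell and 22% rose in HGPS against 2-mo WT. At 24 mo 5.38% of all genes fell and 6.29% rose, and none of 11 is near these shares. The 2 called lower were Antxr1, the anthrax toxin receptor that binds collagen VI (214 ± 10.7 CPM in 2-mo WT and 135 ± 16.6 in HGPS, SD, log2 fold change -0.66 ± 0.09, adjusted p = 1.33e-05), and Itga10, a collagen-binding integrin chain (-1.03 ± 0.14, adjusted p = 1.62e-05). Antxr2, a receptor through which cells take up collagen VI, fell by 0.19 ± 0.06 on the log2 scale, and Cspg4 (NG2), a collagen VI-binding proteoglycan of mural cells, by 0.38 ± 0.15 (adjusted p = 0.0217 and 0.0471). These stayed under 0.05 in 16 and 7 of the 18 fits with a mouse left out. The collagen-binding integrin chain Itga1 and the collagen-sensing kinases Ddr1 and Ddr2 fell as well (-0.42, -0.37 and -0.43). Lair1, an inhibitory collagen receptor of leukocytes, rose, from 1.86 to 3.63 CPM in 2-mo WT to 4.34 to 7.42 CPM in HGPS (1.04 ± 0.20, adjusted p = 0.000435). All 6 macrophage markers rose in the same comparison. Lair1 was called in 12 of the 18 fits with a mouse left out, and its adjusted p was 0.0722 with the brown fat and skeletal muscle scores in the fit. Itgb1, the common partner of these integrin chains, was at 0.07 ± 0.07 (adjusted p = 0.431). In HGPS against 24-mo WT, 5 of the 11 were lower and none higher, where 23.6% of all genes were lower and 23.8% higher, with Itga10 called (-0.80 ± 0.14, adjusted p = 0.000145). Medians of the 11 log2 fold changes were -0.37, 0.02 and -0.20 in HGPS against 2-mo WT, 24-mo against 2-mo WT and HGPS against 24-mo WT.

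Of 14 matrix proteins that link collagen VI or FACITs to fibrils, 13 could be tested (Matn1 was too low). In HGPS against 2-mo WT, 2 rose and 5 fell, where 22% of all genes rose and 21.2% fell. Tgfbi, which binds collagens VI and XII, fell from 434 to 604 CPM in 2-mo WT to 188 to 304 CPM in HGPS (log2 fold change -1.13 ± 0.11, adjusted p = 5.78e-07). Tnxb (tenascin-X), a partner of collagens XII and XIV, fell from 370 to 560 CPM to 195 to 326 CPM (-0.96 ± 0.20, adjusted p = 0.000735), a call kept in 9 of the 18 fits with a mouse left out. The proteoglycan decorin (Dcn), which binds collagens VI, XII and XIV, fell by 0.49 ± 0.09 on the log2 scale (adjusted p = 0.000402), and Fmod and Matn2 fell by 0.44 and 0.42. Comp, which binds FACITs in cartilage and tendon, rose by 0.80 ± 0.19 (adjusted p = 0.00194) and Matn3 by 1.18 ± 0.38 (adjusted p = 0.0166, past 0.05 in 17 of the 18 fits with a mouse left out). Bgn, which binds collagen VI chains, was at 0.20 ± 0.08 (adjusted p = 0.0504).

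At 24 mo, 2 of the 13 rose and 1 fell, where 6.29% of all genes rose and 5.38% fell. Fn1 (fibronectin) rose by 0.84 ± 0.14 on the log2 scale (adjusted p = 0.000355, called in 13 of the 18 fits with a mouse left out), Comp rose by 0.63 ± 0.19 (adjusted p = 0.0327, past 0.05 in 10 of 18 such fits), and Dpt, which is also on the fibroblast marker list, fell by 0.70 ± 0.11 (adjusted p = 0.000283). In HGPS against 24-mo WT, Tgfbi (-0.88), Tnxb (-1.13), Dcn (-0.69) and Fn1 (-0.68) were called lower and Dpt (0.60) higher. Of all genes, 6.11% were called lower and 6.02% higher there. With an adjusted p under 0.05, 5 of the 13 were lower and 1 higher, where 23.6% of all genes were lower and 23.8% higher. The calls of Fn1 and Dpt there were kept in 12 and 13 of the 18 fits with a mouse left out. The 13 had median log2 fold changes of 0.10, 0.16 and 0.02 in the 3 comparisons in that order.

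**Figure D5:**
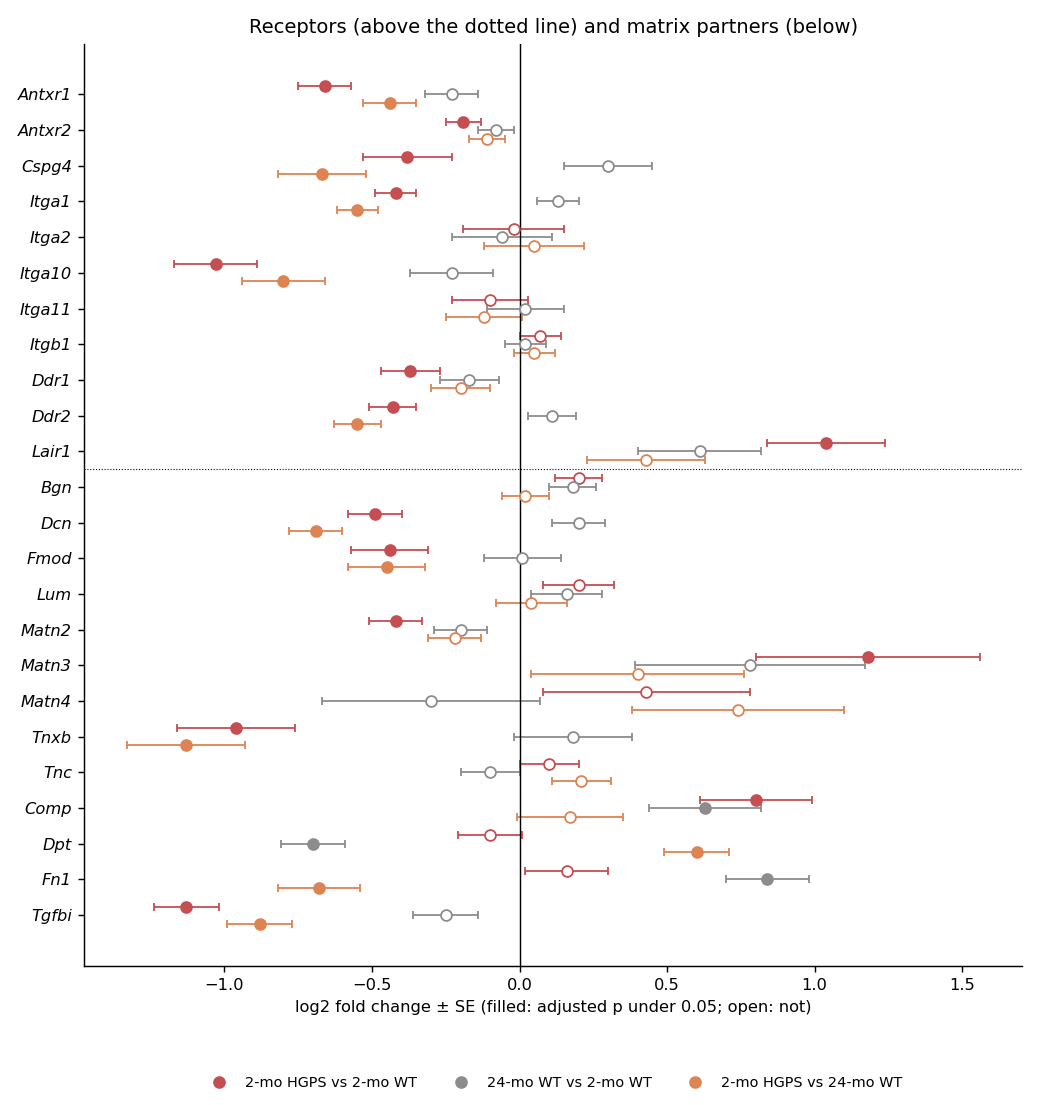
Log2 fold change with SE (x axis) of the 11 receptors and 13 tested matrix partners in the 3 comparisons (colours), filled where the adjusted p was under 0.05. Most filled points of the receptors lie to the left of 0 and come from the comparisons with HGPS mice, and Lair1 lies to the right.

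Of 11 fibrillar collagen genes, 9 could be tested (not Col2a1 and Col24a1). In HGPS against 2-mo WT, Col5a2 and Col11a1 rose and Col3a1 fell, the rise of Col5a2 (0.23 ± 0.09, adjusted p = 0.0375) past 0.05 in 10 of the 18 fits with a mouse left out. Col11a1, a minor fibrillar chain, was called higher, with 0.23 to 0.652 CPM in 2-mo WT and 0.961 to 21.7 CPM in HGPS (log2 fold change 3.86 ± 0.73, adjusted p = 0.000364, called in 13 of the 18 fits with a mouse left out, and adjusted p = 0.103 with the brown fat and skeletal muscle scores). The shares of all genes were 22% and 21.2%. At 24 mo 4 fell (5.38% of all genes), of which Col1a2, Col3a1 and Col5a2 (-0.98 ± 0.09, adjusted p = 4.11e-07) were called. In HGPS against 24-mo WT 5 of the 9 were higher (23.8% of all genes), with Col3a1 (1.27), Col5a2 (1.21) and Col11a1 (4.65) called, and none was lower. Col11a1 had 23 to 432 counts per mouse in HGPS, 5 to 11 in 2-mo WT and 1 to 9 in 24-mo WT. Its HGPS mice alone met the count filter, and both fold changes are against levels near the floor. For the 9 genes the median log2 fold changes were -0.26, -0.80 and 0.63.

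Of 11 genes for the folding, modification and processing of collagen chains, 4 rose in HGPS against 2-mo WT and none fell, and at 24 mo 6 fell and none rose. Of all genes, 22% rose and 21.2% fell in HGPS, and 5.38% fell and 6.29% rose at 24 mo. P4hb, the shared subunit of prolyl hydroxylase, rose by 0.41 ± 0.06 in HGPS and fell by 0.29 ± 0.06 at 24 mo on the log2 scale (adjusted p = 3.02e-05 and 0.00274), and the lysyl hydroxylase Plod2 rose by 0.41 ± 0.07 and fell by 0.41 ± 0.07 (adjusted p = 0.000161 and 0.000687). The collagen chaperone Serpinh1 (HSP47) was called lower at 24 mo (-0.70 ± 0.09, adjusted p = 3.73e-05). In HGPS against 24-mo WT 8 of the 11 were higher (23.8% of all genes) and none lower, with P4ha3 (3.19), P4hb (0.70), Plod2 (0.82) and Serpinh1 (0.87) called. P4ha3 had 17 to 55 counts per mouse in HGPS, 2 to 15 in 2-mo WT and 0 to 5 in 24-mo WT. Its HGPS mice alone met the count filter, and its fold change is against a level near the floor. The median log2 fold change of the 11 was 0.18, -0.32 and 0.52. In the same order of comparisons the collagen VI genes Col6a1 and Col6a2 were at -0.60 and -0.56, -0.76 and -0.45, and 0.16 and -0.11. Col6a3, the other classical chain, was at -0.17, -0.35 and 0.17, and did not pass in either comparison with HGPS.

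As a description of how these genes vary from mouse to mouse, Pearson's r of log2 CPM was taken over the 18 mice after the group means were subtracted; mice share library depth and tissue makeup, and no test was made. The closest pairs were Col6a2 and Col6a3 (r = 0.89), Col6a1 and Col6a2 (0.83), Col12a1 and Col16a1 (0.81) and Col6a1 and Col14a1 (0.77). Col12a1 and Col6a6 had r = -0.17 and Col9a1 with Col6a3 -0.38. Among all other genes averaging 100 counts or more, those most like Col12a1 over the 18 mice, group differences included, were Fst (r = 0.903), Cthrc1 (0.901) and Loxl2 (0.883). Those most like Col6a1 were C1qtnf2 (0.922), Clec11a (0.919) and Cercam (0.917), like Col6a2 Col4a1 (0.937), Sema3b (0.925) and Adamtsl4 (0.915), and like Col6a3 Col1a1 (0.915), Kremen1 (0.892) and Fbn1 (0.88). Col6a6 was most like Arhgef10 (0.938), Tnik (0.938) and Bbs1 (0.936), Col14a1 like Atrn (0.935), Heatr5a (0.915) and Kdm5b (0.914), Col16a1 like Fndc1 (0.885), Col1a1 (0.869) and Col5a1 (0.838), and the sparse Col9a1 like Prpf4 and Ing4 (both 0.79) and Hist2h2bb (0.779). With group means subtracted, Fndc1 was among the 3 genes most like both Col12a1 (0.829) and Col16a1 (0.873), and Col1a2 was among those most like Col6a1 (0.888).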

How the data were processed

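RNA of the descending aorta from 18 male mice, 6 per group, was sequenced (ribosome-depleted, stranded, paired-end). The authors made estimated counts per gene from the reads with salmon (GENCODE M23) and tximport, deposited as whole numbers for 54281 genes. The submitters' processing notes also name Bowtie 0.12.2 and mm10, with no role given. Symbols, coordinates and lengths came from GENCODE M21 (GRCm38), which held 54107 of the genes. Depth was 12413229 to 30844775 counts per mouse.

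Counts were tested with edgeR 4.0.16 (R 4.3.3; quasi-likelihood, TMM factors, 15 residual degrees of freedom) on 15210 genes with 10 counts in at least 6 mice, p-values adjusted by Benjamini-Hochberg over all of them. The authors' own test, DESeq2 (1.42.0 here), was an alternative, as were other scalings, filters, covariates, a replicate block and each mouse left out. Calls used 1.5-fold and adjusted p under 0.001, or adjusted p under 0.05. Ratios and levels relative to Col1a1, Col1a2 and Col3a1 were log2 CPM differences (prior count 2) tested by two-sided exact permutation over mice. SE is the standard error of the fit. Scripts were tested on simulated counts.

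The members and gene lists were chosen with earlier results of these data known. The rule for names took all members, every measured chain of the same families and list genes called at 1.5-fold and adjusted p under 0.001; other list genes named were chosen after their values were seen. The labels do not say that mice with the same number were paired, and deviations of same-numbered mice correlated at -0.16 to 0.17, so the numbers were not used to pair. Replicates are separate mice.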

Additional observations from a re-analysis of the deposited data

Results flagged for a closer look

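Of 36 groups of 6 mice examined (the CPM of 8 genes and 4 log2 ratios, in 3 groups), 4 had a mouse that stood apart from the other 5 by Dixon's criterion, where chance gives about 1 in 20. Col9a1 of HGPS replicate 2 was at 0.126 CPM, below the other HGPS mice (0.501 to 0.625), and Col9a1 of 24-mo WT replicate 6 was at 0.555 CPM, above the others (0.102 to 0.27), values that rest on 3 and 9 counts. The log2 ratio of Col6a1 to Col6a2 was 0.40 in 2-mo WT replicate 6, the oldest mouse of its group (95 d), below the 0.51 to 0.56 of the others, and -0.10 in 24-mo WT replicate 1, below the 0.23 to 0.32 of the others.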

How the results depend on the processing

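With RLE, upper-quartile or no scaling factors, another count filter, DESeq2 or the replicate block, the numbers of the 8 genes called and past an adjusted p of 0.05 stayed within 1.5 times in all 3 comparisons. Fibroblast and smooth muscle scores left 0 called and 0 past 0.05 in each (over all genes 0 against 1445 called in HGPS against 2-mo WT, 4 against 304 in 24-mo against 2-mo WT, 25 against 1845 in HGPS against 24-mo WT). Brown fat and skeletal muscle scores left 0 called in HGPS against 2-mo WT and against 24-mo WT (367 and 624 over all genes). In 24-mo against 2-mo WT these scores left 197 called over all genes, and Col6a1 kept its call. The 2 groups alone left 1 in HGPS against 24-mo WT. DESeq2 called 481 genes against 304 at 24 mo.

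Under fibroblast and smooth muscle scores these log2 fold changes turned sign, none past 0.05: in HGPS against 2-mo WT Col6a1 0.11, Col6a2 0.21, Col6a3 0.44, Col14a1 0.04, Col16a1 0.50, Lair1 -0.15 and Tnxb 0.27; at 24 mo Col6a2 0.07, Col6a3 0.11, Col6a6 0.05, Col12a1 1.02, Col14a1 0.28 and Col16a1 0.60; in HGPS against 24-mo WT Col6a2 0.14 and Col16a1 -0.10. These scores move with the groups, and the cause was not tested.

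With each mouse left out, the numbers called ran from 2 to 5 in HGPS against 2-mo WT, 1 to 2 at 24 mo and 1 to 2 in HGPS against 24-mo WT, and those past 0.05 from 5 to 5, 3 to 5 and 2 to 3. Ratios past 0.05 ran from 3 to 3, 2 to 4 and 3 to 4, counting that of Col9a2 to Col9a1, which was not read, and relative levels from 2 to 5, 7 to 7 and 6 to 7. Of the 8 genes, only the sparse Col9a1 changed sign in these fits: -0.29 to 0.11 in HGPS against 2-mo WT, and its relative level -0.04 to 0.45 at 24 mo and -0.15 to 0.33 in HGPS against 24-mo WT. With Col1a1 and Col1a2 alone as reference, 2 relative levels passed in HGPS against 2-mo WT.

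Replicate numbers did not pair the mice (same-number correlations of -0.16 to 0.17, with 2, 1 and 1 of 6 mice most like their own number). With the replicate block, 1265, 219 and 1653 genes were called, Col12a1 in HGPS against 2-mo WT was at 1.09 (adjusted p = 0.00357) and Col6a3 at 24 mo at -0.35 (adjusted p = 0.0674). Col9a1 and Col9a2 were limited by depth.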
